A study of Saccharomyces cerevisiae with 12 samples.

Results

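The regions described here are the 25 kb windows around the centromeres of 11 larger chromosomes of Saccharomyces cerevisiae (II, IV, V, VII, VIII, X, XI, XIII, XIV, XV and XVI). A window was taken when its midpoint lay within 50 kb of the centromere, which gave 20 windows per chromosome and 220 of the 2441 windows in the table. Windows were placed every 5 kb, so neighbours share most of their sequence and are not independent. The measurement is genomic DNA sequencing of mother enrichment program (MEP) diploids, and the value is a read signal per window, multiplied by a size factor for each library. The strains were wild type and the spt3, rad52 and sac3 mutants, each grown in YPD medium and sampled once in log phase, once at 24 h of ageing and once at 48 h, which makes 12 libraries. In each mutant both copies of the named gene were replaced by a TRP1 marker. All strains, wild type included, carried the recombinase Cre-EBD78 under the daughter-specific SCW11 promoter in place of HO and loxP-flanked UBC9 and CDC20, and shared ade2::hisG, ura3D0, trp1D63, his3 and leu2 alleles, with lys2 and met15D::ADE2 heterozygous. β-estradiol activates the recombinase in newborn daughters, which then stop dividing, so that biotin-labelled mothers can be collected at a known time, and the log phase cells had no estradiol. Each mutant is a single strain, and the aged libraries come from purified populations of mothers rather than from single cells.

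A budding yeast centromere is a short defined sequence, the point centromere, on which a single kinetochore is built that attaches the chromosome to a microtubule. It has 3 parts: CDEI, bound by Cbf1, the AT-rich spacer CDEII, wrapped around the Cse4 nucleosome, and CDEIII, bound by the CBF3 complex, without which no kinetochore forms. The DNA on either side is rich in cohesin, is held together near the spindle pole with the other centromeres, and is known to replicate early in S phase. The study sequenced these genomes to see which parts change in copy number as mothers age, with mutants that accumulate few circles of ribosomal DNA set against wild type. The signal is scaled for each library, so a lower value is lower in relation to the other windows and is not by itself a loss of DNA. In DNA from a population, a change in every cell and a larger change in some cells cannot be told apart.

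The centromeres are shown because distance from them orders all values below. The 3 sequences are CEN10, CEN11 and CEN2, the last flanked by the window with the highest change. Within 10 kb the wild type signal was lower with age at each of them, and at every other centromere described here but CEN4. They are printed 5′ to 3′ on the strand that puts CDEI first, with CDEI and CDEIII in capitals, from the RefSeq R64 assembly.
CEN10: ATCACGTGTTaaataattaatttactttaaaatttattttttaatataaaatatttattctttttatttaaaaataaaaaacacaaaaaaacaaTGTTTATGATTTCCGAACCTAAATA
CEN11: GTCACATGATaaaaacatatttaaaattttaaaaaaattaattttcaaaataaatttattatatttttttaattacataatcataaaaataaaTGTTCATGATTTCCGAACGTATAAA
CEN2: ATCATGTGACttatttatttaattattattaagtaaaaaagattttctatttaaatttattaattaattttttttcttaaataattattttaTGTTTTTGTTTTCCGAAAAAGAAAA
CEN10 is on the minus strand at chrX:436307-436425, between the proteasome subunit gene PRE3 and the vacuolar transporter gene AVT1. CEN11 is on the minus strand at chrXI:440129-440246, between MET14 of sulfate assimilation and VPS1, which encodes a dynamin-like GTPase. CEN2 is on the plus strand at chrII:238207-238323, between ECM15 and the trehalase gene NTH2. Searched on both strands, the letters TCACNTG were found in 11 of the 11 centromeres and TCCGAA in 10. In 100587 tiles of 120 bases across the genome they occur on either strand in 4.07% and 3.85% of tiles, and both together in 0.135%. Their matches overlap in 0 centromeres, and a match is a description of letters only.

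There are no replicate libraries, and the p-values below come from a fit of all 12 with genotype as a term, in which the 24 h and 48 h values of a genotype enter as separate repeats of the age effect. Counted over windows without overlap, the depth was 5261601 to 12147987 reads, and a median nuclear window rested on 7524 to 21605 of them. Counting error was then 0.680% to 1.15%, which leaves out the variation between cultures. The median signal of a nuclear window was 12626 to 12897 in every library. Within these windows the genotype labels have only RAD52 as a check, which is given below.

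In log phase the pericentromeric windows already stood above the genome. Their median signal was 1.08 times the library median in wild type, 1.10 in spt3, 1.05 in rad52 and 1.06 in sac3, against 0.972 to 0.984 for the windows of the same chromosomes farther than 100 kb from the centromere. Within the 50 kb the median signal over windows was lowest at the centromere. In wild type it rose from 1.02 times the library median within 10 kb to 1.07 at 10 to 20 kb, 1.12 at 20 to 30 kb and 1.13 at both 30 to 40 kb and 40 to 50 kb, and it was 1.05 at 50 to 60 kb and 0.995 at 100 to 150 kb. The young mutants had the same order of the first and last of these classes, from 1.04 to 1.11 in spt3, 0.973 to 1.13 in rad52 and 0.995 to 1.07 in sac3. GC content followed the same order, with a mean of 37.3% within 10 kb, 37.7%, 38.2%, 38.4% and 38.5% at 40 to 50 kb. Annotated replication origins ran the other way and were present in 88.6% of the windows within 10 kb and in 40.9% of those at 40 to 50 kb. Not every chromosome had the lower signal at its centromere. In each log phase library the median within 10 kb was below that at 30 to 50 kb on 8 of 11 chromosomes. In wild type it was above at CEN4, CEN13 and CEN14, by 1.09, 1.16 and 1.12 times.

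With age the signal fell at the centromere in relation to log phase. Within 10 kb (44 windows) the signal of wild type at 24 h was 0.918 times that of its log phase library, as a median, and at 48 h 0.890 times. The spt3 mutant had 0.903 at both times. The rad52 mutant had 0.903 at 24 h and 0.978 at 48 h, and the sac3 mutant 0.924 and 0.980. All 8 aged libraries were thus below 1 here, and the rad52 and sac3 libraries at 48 h were the closest to it. At 10 to 20 kb the 8 medians ran from 0.910 in wild type at 48 h to 1.01 in sac3 at 48 h, which was the only library above 1. Wild type then crossed 1 between the 20 to 30 kb class, with 0.977 at 24 h and 0.963 at 48 h, and the 30 to 40 kb class, with 1.03 and 1.04. At 40 to 50 kb every aged library was at or above its log phase library, with ratios from 1.00 in rad52 at 48 h to 1.10 in sac3 at 48 h.

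**Figure D1:**
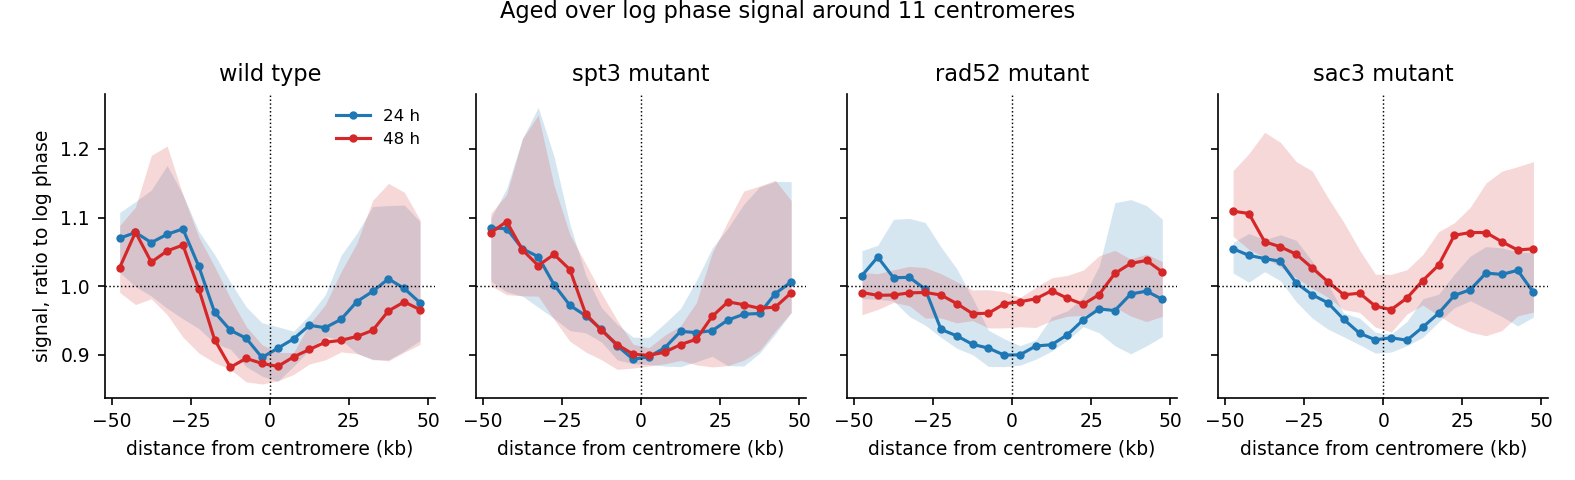
Aged signal over the log phase signal of that genotype (y axis) against distance of the window midpoint from the centromere in kb (x axis), for 24 h and 48 h in each genotype. Points are medians over 11 chromosomes and shaded bands run from the lower to the upper quartile of the chromosomes; within 10 kb all 8 aged libraries lie below 1, between 0.890 and 0.980.

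Over all 220 windows wild type had a median ratio of 0.965 at 24 h and 0.936 at 48 h. The ratios at these times were 0.966 and 0.959 in spt3, 0.954 and 0.986 in rad52, and 0.980 and 1.04 in sac3. The same ratio over all nuclear windows was 0.996 to 1.02 in the 8 aged libraries. Windows below 1 numbered 134 and 139 in wild type, 132 and 135 in spt3, 145 and 136 in rad52 and 130 in sac3 at 24 h, but 80 in sac3 at 48 h. The sac3 library at 48 h therefore differed from the other 7 in holding more pericentromeric windows above than below its log phase library.

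In the limma fit of age (both aged times against log phase, with genotype as a term) across 2423 nuclear windows, 76 of the 220 pericentromeric windows (34.5%) were lower with age at an adjusted p under 0.05, where 12.1% of all nuclear windows were. The number higher with age was 51 (23.2%), close to the 22.5% of all nuclear windows. The fitted changes ran from -0.21 to 0.40 on the log2 scale, with a median of -0.05 over the pericentromeric windows and of 0.00 over all windows. In 59 windows (26.8%) all 8 aged libraries were below their own log phase library, against 12.4% of all windows, and in 46 (20.9%) all 8 were above, against 20.1%. The 8 aged libraries lay wholly below the 4 log phase libraries in 42 windows (19.1%, background 5.74%) and wholly above them in 14 (6.36%, background 10.9%).

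The calls were ordered by distance. Within 10 kb, 30 of 44 windows were lower (68.2%) and 0 higher. At an unadjusted p under 0.05, 33 of them were lower and 0 higher, where 18.4% and 28.8% of all nuclear windows were. At 10 to 20 kb, 21 were lower and 4 higher, and at 20 to 30 kb 13 and 11. At 30 to 40 kb the order was turned, with 7 lower and 20 higher (45.5%), and at 40 to 50 kb 5 were lower and 16 higher. Of the windows called lower 51 of 76 lay within 20 kb of the centromere, and of those called higher 36 of 51 lay beyond 30 kb.

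**Figure D2:**
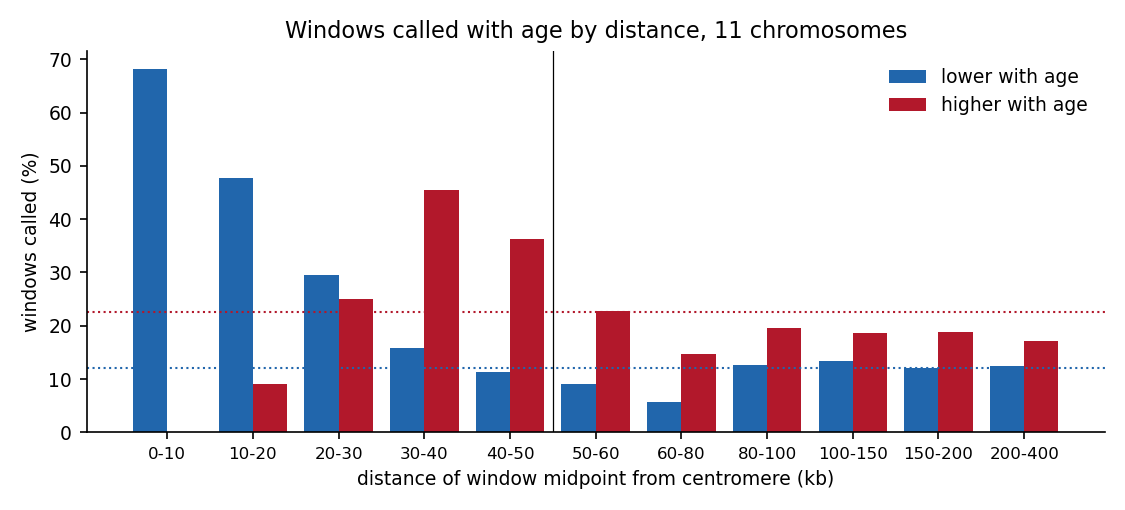
Percentage of windows of the 11 chromosomes called lower (blue) or higher (red) with age, by distance of the midpoint from the centromere in kb; the vertical line marks 50 kb and dotted lines the 12.1% and 22.5% of all nuclear windows. Lower calls take 68.2% of the windows within 10 kb and 11.4% of those at 40 to 50 kb.

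Beyond 50 kb the shares were nearer to those of the genome. Of the 219 windows 50 to 100 kb from the same centromeres 20 (9.13%) were lower and 40 (18.3%) higher, and of the 1514 windows farther out on the same chromosomes 173 (11.4%) and 301 (19.9%). Around the other 5 centromeres (I, III, VI, IX and XII) 9 of 100 windows were lower and 23 higher. Their median change was also lowest within 10 kb, at -0.07 against -0.12 around the 11 larger chromosomes' centromeres, and 4 of their 20 windows there were lower. The difference between the 2 sets of centromeres was not tested.

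GC content moved with these calls. Windows called lower had a mean GC content of 37.5%, those called higher 38.9% and the remainder 38.0%, and across the 220 overlapping windows the fitted change had a Pearson's r of 0.55 with GC content and of 0.45 with distance, as a description. After a GC correction of each library, the median change within 10 kb was -0.12 before and after, with 24 of 44 windows lower. The median at 30 to 40 kb went from 0.03 to -0.02 and at 40 to 50 kb from 0.06 to 0.00, while the median of all windows went to -0.03. Higher calls were then 14 of 44 (31.8%) at 30 to 40 kb and 9 of 44 (20.5%) at 40 to 50 kb, against 13.9% of all nuclear windows. In number of calls, 67 windows were then lower (30.5%, against 12.1% of all nuclear windows), 60 of them among the 76. The number higher was 34 (15.5%, against 13.9%), all of them among the 51. Replication origins were annotated in 84.2% of the windows called lower and 41.2% of those called higher, and the part of either property in the result was not tested.

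The number of calls changed with the libraries in the fit. Without rad52 62 pericentromeric windows were lower (28.2%) and 45 higher (20.5%), against 11% and 20.7% of all nuclear windows. Without sac3 89 were lower (40.5%) and 47 higher (21.4%), against 11.1% and 21.1% of all. Limma called 0 pericentromeric windows in either direction without wild type, without spt3, from 24 h alone or from 48 h alone. Of all nuclear windows it called 0% lower in each of these fits, and 0.537%, 0%, 0% and 0.537% higher. At an unadjusted p under 0.05, 66, 62, 84 and 56 of the 220 windows were then lower (30.0%, 28.2%, 38.2% and 25.5%), against 9.99%, 11.8%, 11.7% and 13.7% of all nuclear windows. The numbers higher were 46, 47, 49 and 51 (20.9%, 21.4%, 22.3% and 23.2%), near the 22.2%, 21.0%, 21.3% and 21.8% of all. When each genotype gave a single mean difference, 50 windows (22.7%) were lower and 40 (18.2%) higher, against 6.31% and 15.4% of all nuclear windows.

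The 11 centromeres differed in the shape and width of the change. Windows lower with age were found on 10 of them, all but XVI, and windows higher with age on 8. Chromosomes VIII and XV had the broadest fall, with 14 of 20 windows lower each. On XV wild type had median ratios within 10 kb of 0.826 at 24 h and 0.855 at 48 h. They were 0.888 and 0.850 in spt3, 0.876 and 0.986 in rad52 and 0.928 and 0.941 in sac3, and 0 windows were higher. On XI and XIII 6 and 8 windows were lower and 0 higher. Chromosomes II, V and X had a narrow fall between raised flanks, with 12, 10 and 6 windows higher and 3, 3 and 7 lower. On II the median change was -0.10 within 10 kb and 0.24 at 30 to 50 kb.

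Chromosomes IV and XIV were asymmetric. On IV the windows 30 to 50 kb to the left of the centromere had a median change of 0.17 and those to the right of -0.19. On XIV the left flank had -0.06 and the right flank 0.25. Chromosome IV was also the only chromosome whose windows within 10 kb had a median change above 0, at 0.02. The other 10 lay between -0.17 on XV and -0.09 on V.

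**Figure D3:**
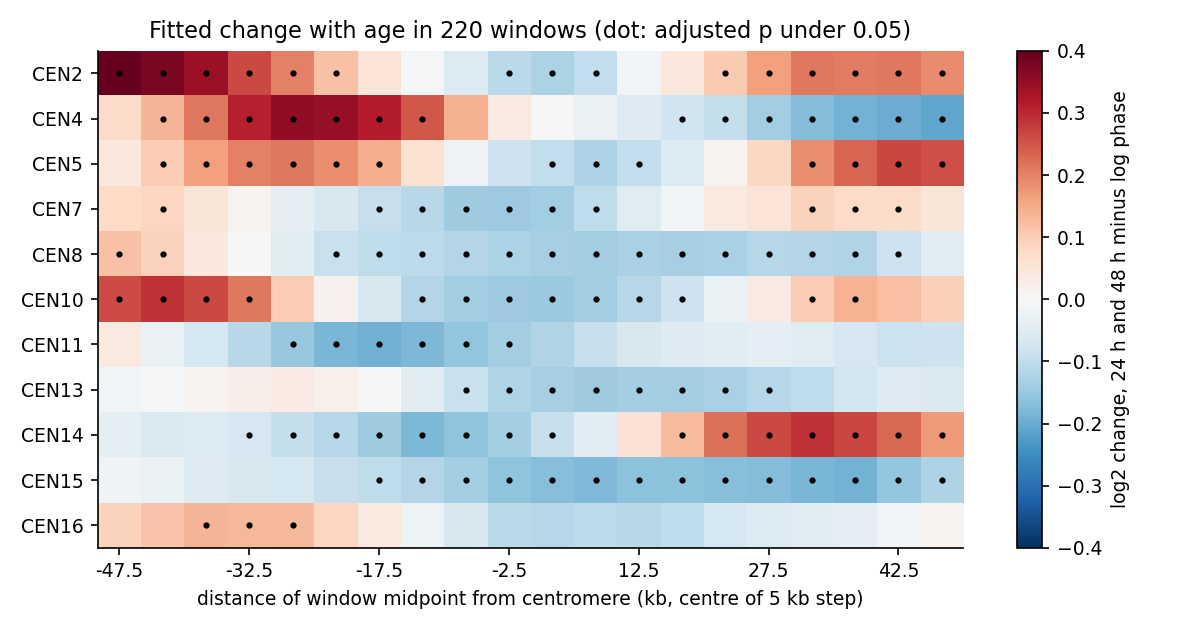
Fitted log2 change with age (colour scale, blue lower and red higher) in the 220 windows, 1 row per centromere, ordered by distance of the midpoint from the centromere in kb, left arm at negative values. Dots mark windows with an adjusted p under 0.05; a blue column stands at the centromere in every row but CEN4.

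Whole chromosomes also shift a little, so the core was set against the rest of its own chromosome. The median change outside the 50 kb ran from -0.04 on VIII and X to 0.04 on XV. The core median was below it on 10 of 11 chromosomes, by 0.07 on V and by 0.20 on XV, and above it by 0.03 on IV. In single libraries, the core ratio was below the ratio of the rest in all 8 aged libraries on VII, VIII, X, XIII, XIV, XV and XVI. It was below in 7 on II and XI, in 6 on V and in 2 on IV.

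The window nearest each centromere holds the centromere itself with 12 to 17 protein-coding genes. It was lower with age on 8 of the 11 chromosomes and had a fitted change above 0 on IV. At CEN15 (chrXV:315001-340000) the log phase signal was 11612 in wild type, 11668 in spt3, 11341 in rad52 and 11073 in sac3. At 24 h it was 9588, 10313, 9866 and 10242 in the same order, and at 48 h 9892 in wild type, 11086 in rad52 and 10387 in sac3. All the aged values were below the log phase value of their genotype, but the rad52 value at 48 h was above the lowest log phase value. The fitted change was -0.17 (SE 0.04, adjusted p = 0.0122).

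At CEN10 (chrX:425001-450000) the log phase signals were 11707, 11728, 11373 and 11162 in wild type, spt3, rad52 and sac3. The 8 aged signals had a lowest value of 9875, a median of 10423 and a highest of 10879, all below the log phase libraries. The fitted change was -0.15 (SE 0.03, adjusted p = 0.0111). The groups were separate in the same way at CEN7, between ERG26 of ergosterol synthesis and EFM5, with 11739 to 12230 in log phase and 10317 to 11403 with age. At CEN8, between the ribosomal protein gene RPL14B and OSH7, they were 12256 to 13310 and 11120 to 12197. At CEN14, between DOM34, which rescues stalled ribosomes, and the citrate synthase gene CIT1, they were 14432 to 15968 and 13060 to 14403. The fitted changes of these 3 windows were -0.14, -0.13 and -0.13, with adjusted p values of 0.0122, 0.0146 and 0.0133 in limma.

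CEN13, between the vacuolar GTPase gene YPT7 and CDC5, which encodes the polo kinase, changed by -0.12 (SE 0.02, adjusted p = 0.0108), and every aged library was below its own log phase library. CEN2 changed by -0.11 (SE 0.03, adjusted p = 0.0396) and CEN5, between IRC22 and the mannosyltransferase gene MNN1, by -0.10 (SE 0.03, adjusted p = 0.0331). At CEN2 only 6 of the 8 aged libraries were below their log phase library and at CEN5 7, with the highest ratio at each being 1.01. CEN11 and CEN16, the latter between the histone acetyltransferase gene HAT1 and CIT3, missed the threshold, at -0.12 (SE 0.04, adjusted p = 0.0540) and -0.11 (SE 0.05, adjusted p = 0.112). At CEN11 the ratios went from 0.846 in wild type at 24 h to 1.03 in sac3 at 48 h. At CEN16 the sac3 library at 48 h had 12911 against 12034 in log phase, while wild type had 9703 and 9974 with age against 11355.

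At CEN4 (chrIV:435001-460000) the genotypes went different ways. The log phase signals were 15840 in wild type, 15833 in spt3, 15162 in rad52 and 14986 in sac3. At 24 h they were 16133, 17542, 14657 and 13817, and at 48 h 16223, 16440, 14774 and 17683. Wild type and spt3 were above log phase at both times and rad52 below at both, and sac3 was below at 24 h and above at 48 h. The fitted change was 0.04 (SE 0.06, adjusted p = 0.626), and the difference between genotypes was not tested.

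**Figure D4:**
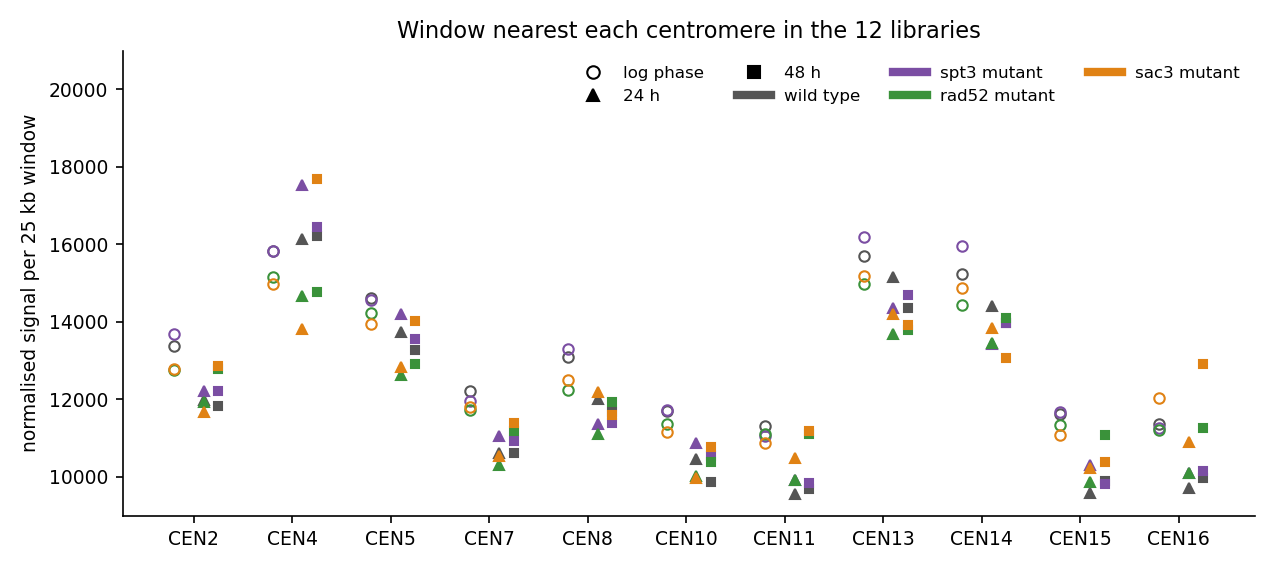
Normalised signal (y axis, not starting at 0) of the window nearest each of the 11 centromeres (x axis) in the 12 libraries; open circles are log phase, triangles 24 h, squares 48 h, and colours the genotypes, with 1 library per point. At CEN7, CEN8, CEN10 and CEN14 every aged library lies below every log phase library, and at CEN4 they are mixed.

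The lowest window of each chromosome was called on 10 of them. It lay within 11.5 kb of the centromere on II, V, VII, VIII, X, XIII and XIV, and farther out on IV, XI and XV. The lowest of all was chrIV:485001-510000, 47.5 kb to the right of CEN4, with 15 protein-coding genes from DAS2 to MRH1. Its log phase signals were 10499, 10507, 10519 and 10209 in wild type, spt3, rad52 and sac3, and its aged signals had a lowest value of 8408 (wild type, 24 h), a median of 8946 and a highest of 10167 (rad52, 48 h), so that the groups did not overlap. It changed by -0.21 (SE 0.04, adjusted p = 0.0109). The lowest window of XI was 17.5 kb to the left of CEN11 (chrXI:410001-435000, URB1 to BYE1), with 10529 to 10870 in log phase, 8701 to 10491 with age and a change of -0.19 (SE 0.05). On XV it was 35.5 kb to the right of the centromere (chrXV:350001-375000, YOR011W-A to SFM1), with 11444 to 11810 in log phase, 9616 to 10681 with age and a change of -0.19 (SE 0.03). Of the other 7, the lowest windows changed by between -0.18 (XIV, PBI2 to DOM34) and -0.12 (V, VAB2 to TMA20). The window next to CEN2 that was lowest there runs from the histone gene HTA2 to FLR1 and changed by -0.13 (SE 0.03). The lowest windows of VII (YGL007C-A to PEX31), VIII (LAG1 to SOD2), X (CYR1 to LSO1) and XIII (YPT7 to HXT2) changed by -0.14, -0.14, -0.15 and -0.14. In each of the 10 windows all 8 aged libraries were below their own log phase library. The windows were chosen for their low change in the same libraries, so this is a description only.

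The highest window was called on 8 chromosomes and lay 27.5 to 48.5 kb from the centromere on each of them. The highest of all was chrII:180001-205000, 45.5 kb to the left of CEN2, with 11 protein-coding genes from HAP3, a subunit of the respiratory activator complex, to FMT1. It had 18226, 17433, 17061 and 17044 in log phase in wild type, spt3, rad52 and sac3. At 24 h it had 23494, 26466, 20870 and 19279, and at 48 h 25102, 25540, 19096 and 25860. All the aged values were above all those of log phase, with ratios from 1.12 in rad52 at 48 h to 1.52 in spt3 at 24 h, and the change was 0.40 (SE 0.08, adjusted p = 0.0111). On IV it was chrIV:410001-435000, from GPD1, the glycerol 3-phosphate dehydrogenase gene, to APC11, with 17758 to 19337 in log phase, 19597 to 26560 with age and a change of 0.36 (SE 0.07).

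On X (TAD2 to MPS3) and XIV (YNR014W to SEC12) the highest windows changed by 0.29 each, with groups that did not overlap, and on V (HEM14 to YAT2) by 0.27. Those of XVI (RAD1 to MRPS16), VIII (OCA5 to APM2) and VII (MSB2 to YGR027W-A) changed by 0.14, 0.12 and 0.09. The aged libraries were above their own log phase library in all 8 on 7 of the chromosomes and in 7 on XVI, where rad52 at 48 h had a ratio of 0.980. These windows were chosen for their high change in the same libraries, so this is a description only. All 8 windows already had a log phase signal of 14951 to 19337, above the library medians. Across the 220 windows the wild type log phase signal and the mean change of the 3 mutants, which share no library, had a Pearson's r of 0.71 and a Spearman's rho of 0.66 (0.48 and 0.59 over all 2423 nuclear windows). The points overlap, share the base composition of the windows and are given as a description.

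The shape around the centromere was also measured within each library, free of its scale, as the median signal of the 4 windows within 10 kb over that of the 8 windows at 30 to 50 kb on the same chromosome. In log phase the median over the 11 chromosomes was 0.934 in wild type, 0.929 in spt3, 0.933 in rad52 and 0.915 in sac3. At 24 h it was 0.821, 0.844, 0.892 and 0.890, and at 48 h 0.880, 0.838, 0.940 and 0.863 in the same order. The 4 log phase values thus lay close together, 7 of the 8 aged values were below them, and rad52 at 48 h was above them. Compared chromosome by chromosome, the ratio was lower than in log phase on 10 of 11 chromosomes at 24 h and 48 h in wild type and in spt3. It was lower on 10 in rad52 at 24 h, on 11 in sac3 at 24 h, on 9 in sac3 at 48 h and on 6 in rad52 at 48 h. The smallest ratios were at CEN2, CEN7 and CEN10. At CEN2 wild type went from 0.760 in log phase to 0.590 at 24 h and 0.570 at 48 h, and rad52 from 0.770 to 0.625 and 0.718. The highest ratios were at CEN4, CEN13 and CEN14, and at CEN4 sac3 went from 1.09 to 1.04 at 24 h and 1.22 at 48 h. No test was made of these ratios.

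**Figure D5:**
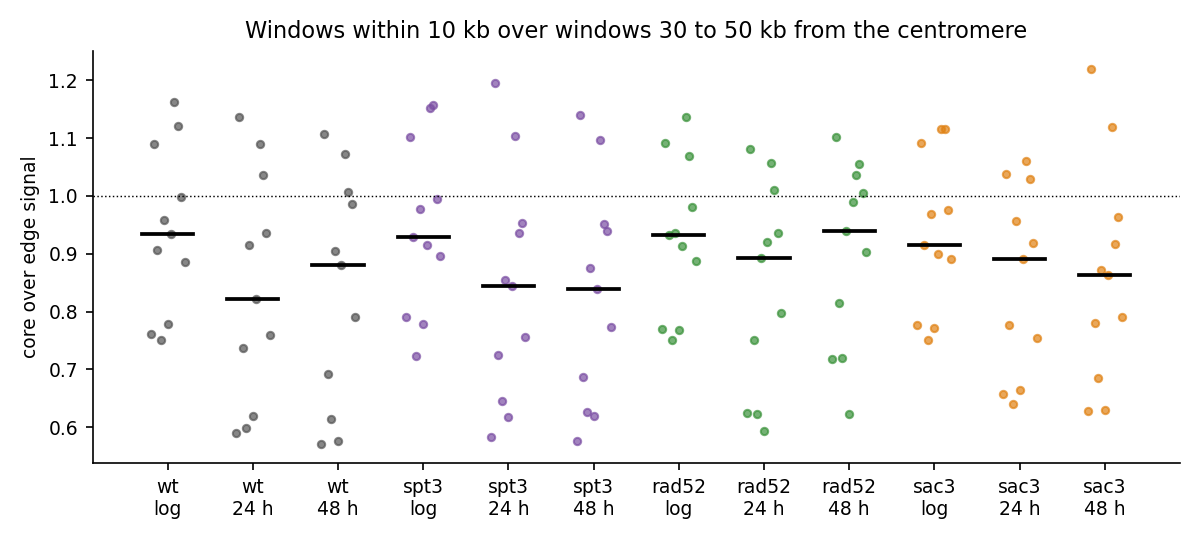
Median signal of windows within 10 kb over that of windows 30 to 50 kb from the same centromere (y axis) in each of the 12 libraries (x axis), with 1 point per chromosome and a bar at the median of the 11. The bars of the 4 log phase libraries lie between 0.915 and 0.934 and those of the aged libraries between 0.821 and 0.940.

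Between 24 h and 48 h no pericentromeric window passed the threshold. Of all nuclear windows 0% were lower and 0% higher. At an unadjusted p under 0.05, 0 pericentromeric windows were lower and 2 higher (0.909%), against 0.289% of all nuclear windows in each direction. The direction was uneven all the same, with 170 of the 220 fitted differences above 0 and 50 below. Within 10 kb the median ratio to log phase went from 0.903 at 24 h to 0.978 at 48 h in rad52 and from 0.924 to 0.980 in sac3. It went from 0.918 to 0.890 in wild type. Without the sac3 libraries 103 fitted differences were above 0 and 117 below.

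Each mutant was compared with wild type over the 3 time points in the same model. No pericentromeric window was called in any mutant, where 0% of nuclear windows were lower and 0% higher in spt3 and in rad52, and 0.165% were lower and 0.825% higher in sac3. At an unadjusted p under 0.05, 0 pericentromeric windows differed in spt3, where 1.16% of all nuclear windows were lower and 0.413% higher. In rad52 56 were lower (25.5%) and 6 higher (2.73%), against 9.16% and 13.4% of all. In sac3 22 were lower (10.0%) and 15 higher (6.82%), against 4.5% and 7.64%. In log phase the median ratio to wild type over the 220 windows was 1.00 in spt3, 0.972 in rad52 and 0.965 in sac3, where over all nuclear windows it was 0.994, 0.998 and 0.990. The young rad52 mutant was lowest on V, at 0.951, as was the young sac3 mutant, at 0.943.

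Chromosome XVI stood apart in the sac3 mutant. There the sac3 signal was 1.06 times that of wild type in log phase over the pericentromeric windows, 1.11 times at 24 h and 1.29 times at 48 h, and the rest of the chromosome had 1.07, 1.17 and 1.25. The 4 windows 30 to 50 kb to the right of CEN16, chosen after their values were seen, run from SUT2 to CCL1 and missed the threshold with adjusted p values of 0.0599 to 0.0614. They were called under 3 alternatives (GC correction, windows without repeats, and full-length windows). Higher calls in sac3 then took a smaller share of pericentromeric than of all nuclear windows. The shares were 1.82% against 2.85%, 3.51% against 3.68% and 1.82% against 2.77%. The first of the 4 windows, chrXVI:575001-600000, is at 10110, 8616 and 9297 in wild type and at 10880, 10950 and 12170 in sac3 in log phase, at 24 h and at 48 h, rounded to 4 digits. The sac3 values were above those of wild type at each time, by 1.07, 1.27 and 1.31 times.

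Some of these windows hold genes that the strains alter. TRP1, a gene of tryptophan synthesis, lies at chrIV:461842-462516 to the right of CEN4, and reads from the marker in the mutants can map to it. In the 5 windows that hold it, the log phase ratio to wild type relative to the other 15 windows of that centromere was 1.07 in spt3, 1.02 in rad52 and 1.04 in sac3. At 24 h it was 0.992, 1.095 and 1.14 in the same order, and at 48 h 1.03, 1.23 and 1.05. TRP1 spans 675 bp of each 25 kb window. The other 15 windows include the left flank of CEN4, which had a median change of 0.17 with age. In rad52 at 48 h the ratio to wild type was 1.05 in the 5 windows and 0.849 in the other 15. The parts of marker reads and of the uneven flanks in these ratios were not tested. RAD52, a gene of homologous recombination at chrXIII:212515-213930, lies within 1 of the windows, whose ratio to wild type in the rad52 mutant was 0.969, 0.922 and 0.970 in log phase, at 24 h and at 48 h. Relative to the other 19 windows of CEN13 these were 1.02, 0.992 and 0.984, so that the deletion could not be read from this window. URA3, which all strains lack (chrV:116167-116970, to the left of CEN5), is held by 5 windows. In log phase their ratio to wild type relative to the other 15 was 0.974 in spt3, 0.982 in rad52 and 0.993 in sac3. With age it ran from 0.884 in rad52 at 48 h to 1.01 in rad52 at 24 h.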

How the data were processed

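The deposited values are a signal per 25 kb window, placed every 5 kb, for 12 libraries. To make them the authors used trimmed reads mapped by Bowtie 2 onto R64-1-1 (as their methods state), took the number of reads in a window and scaled it with the size factor of the library. The submitters' processing notes name Trim Galore 0.6.6, HISAT2 2.1.0 and build R64. The treatment of duplicate reads is not given in the sources used here. Windows with Ty elements, LTRs, mitochondrial DNA, ENA or CUP1 are described as left out before normalisation, but are in the table, which covers 17 sequences to their reference ends. Steps of the signal served only to describe depth: with a tolerance of 0.1, at least 99.9% of values were whole multiples of the value of 1 read.

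Log2(signal + 1) of 2423 nuclear windows was analysed with limma 3.58.1 in R 4.3.3, with Benjamini-Hochberg adjustment over all of them and a threshold of 0.05. Fold changes on this scale are those of the signal. Libraries were grouped by their labels. On simulated windows for the age comparison, 100% of 200 windows changed 1.2-fold among 2423 were called, with 5.21% unchanged windows among the calls. Simulated noise was independent between windows and between the libraries of a genotype, so the 5.21% need not hold for the real windows. Other steps used Python 3.11.15, numpy 2.4.6, pandas 2.3.3, scipy 1.17.1 and matplotlib 3.10.9. Genes, centromeres, origins and GC content came from the RefSeq R64 annotation.

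Named windows are the one nearest each centromere, the lowest and highest called change on each chromosome, and those holding TRP1, URA3 or RAD52. The 4 windows to the right of CEN16 were chosen after their values were seen. The windows, lists and tests were chosen with earlier results of these data known. Alternatives changed the centring, GC correction, repeat windows, pseudocount (100), window length, times, genotypes and distance limits. Sequences and positions are given for 3 of the 11 centromeres, and the others are not reported here.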

Additional observations from a re-analysis of the deposited data

Results flagged for a closer look

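Over the window nearest CEN4, both aged libraries of wild type (1.018 at 24 h and 1.024 at 48 h, as ratios to log phase) and of the spt3 mutant (1.108 and 1.038) were above 1, while both of the rad52 mutant (0.9667 and 0.9744) were below. With 1 library per genotype and time this difference was not tested.

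Over the 220 pericentromeric windows, sac3 at 48 h had the highest median ratio of the 8 aged libraries, 1.042, set off from the nearest other library (0.986) by 0.528 of the whole range, just past the limit of 0.526 for 8 values. This was 1 of 25 sets of libraries examined in this way, and chance sets off about 1 in 20. The libraries differ in genotype and time.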

How the results depend on the processing

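The counts of windows called with age changed with which libraries entered the fit. The 76 lower and 51 higher windows became 0 and 0 with 24 h only, with 48 h only, without the wild type libraries and without the spt3 libraries, while the fitted direction was downward in 130 to 136 windows there, against 135 with all libraries. Of all nuclear windows 0% were then called lower, and 0% or 0.537% higher. Without the rad52 libraries 62 were lower (28.2%) and 45 higher (20.5%), against 11% and 20.7% of all nuclear windows. Without the sac3 libraries 89 were lower (40.5%) and 47 higher (21.4%), against 11.1% and 21.1% of all. The cause was not tested. Leaving out windows that touch Ty elements, LTRs, ENA or CUP1 gave 40 lower (35.1%) and 23 higher (20.2%) among the 114 that remained. Of all nuclear windows that remained 10.4% were lower and 22.4% higher. Genotype means, which pair the aged mean of each genotype with its log phase library, gave 50 lower (22.7%, against 6.31% of all). Without the sac3 library at 48 h, chosen after seeing the data, 89 were lower (40.5%) and 48 higher (21.8%), against 12.4% and 22.7% of all. Without the rad52 library at 48 h, chosen in the same way, 78 were lower (35.5%) and 53 higher (24.1%), against 14.4% and 23.9%. No called window changed sign under re-centring, GC correction, genotype means, the 3-level time fit or without rad52 or sac3. These refits share most or all of their libraries with the main fit, and the fits that left 0 calls were not compared in this way. Windows different from wild type went from 0 to 4 under GC correction, without repeat windows and with full-length windows, all right of CEN16 in sac3. These were 1.82%, 3.51% and 1.82% of the pericentromeric windows, where 2.85%, 3.68% and 2.77% of all nuclear windows were higher in sac3. The median log2 change of -0.0485 became -0.0986 within 25 kb and -0.0055 as a mean over windows, and the cause was not tested. The core to edge median of the log phase libraries went from 0.931 to 0.956 within 25 kb and to 0.965 with the edge at 50 to 100 kb, and that of the aged libraries stayed between 0.843 and 0.880. With 1 library per group, culture variation limits precision more than the 0.680% to 1.15% counting error shows.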
